A study of Mus musculus with 2 samples.

Results

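Genes that encode the machinery of chromatin (nucleosome remodellers, polycomb proteins, histone deacetylases and acetyltransferases, and the enzymes of DNA methylation) were followed in DN3 thymocytes with and without functional Miz-1. The list holds 52 genes, chosen by name, and all probe sets annotated to them were taken from a table of 18193 named genes. Of these 52, 51 had a probe set named for that gene alone, with 131 probe sets in all. Ncor1, a corepressor gene, had none and was not analysed here. Gene expression was read on 2 one-colour oligonucleotide arrays, 1 for a Miz-1 knockout and 1 for a wild type, both of C57BL/6 background. The knockout allele lacks the POZ domain of Miz-1, a zinc finger transcription factor encoded by Zbtb17. The promoter of any Cre used for the deletion, the age of the mice and the number of animals behind each array are not stated in the sources used. The sorted cells carried CD25 but neither CD44 nor lineage markers. With 1 array per genotype there is no replicate, so every value below is given without an error between animals, no difference was tested for significance, and differences are described by their size.

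Chromatin regulators decide which genes a cell can reach. SWI/SNF, ISWI and CHD proteins use ATP to slide or evict nucleosomes, NuRD joins such a remodeller to histone deacetylases, and polycomb complexes keep genes silent by marking histones with methyl groups or ubiquitin. Deacetylases remove the acetyl groups that p300 and CBP add, while DNMT enzymes write and TET enzymes oxidise DNA methylation. In early thymocytes several of these proteins are known to be needed for the development and survival of T cell precursors.

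The signal of a probe set is a fluorescence intensity on a linear scale. For each gene the probe set of highest mean signal was used, and the gene counted as measured where this mean exceeded 394, the median of all non-control values, which also served as the floor for ratios. Of the members, 48 were measured, among 10770 measured genes on these arrays. The log2 ratio is that of knockout over wild type, so that negative values are lower in the knockout, and a gene was counted as higher or lower if the ratio reached 2-fold. A fold is a lower bound if its smaller value lay below the floor. The only repeated measurement is that of different probe sets of the same gene. Over 4514 genes with several measured probe sets, their log2 ratios had a root mean square SD of 0.57, and over the 30 such members it was 0.58.

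Several facts of the whole series bear on these values. Zbtb17 itself read 1361 in knockout cells against 3042 in wild-type cells by the brighter of its probe sets, log2 ratio -1.16, and 609.8 against 47.6 by a dim second one. Where these probes lie relative to the deleted part is not stated, so they do not check the genotype. All 12 named DN3 and T lineage markers were measured on both arrays, among them Ptcra, the pre-T alpha chain, at 11518 and 7513. Of these 12, 10 had a positive ratio and 3 passed 2-fold upward. Their median on the log2 scale was 0.75, with a summed signal of 337165 in knockout against 237973 in wild-type cells. Il2ra, which encodes the CD25 of the sort, read 23018 against 4992. Of 7 named B cell markers 5 were measured, with a summed signal over the 7 of 15941 against 31673. Most of it came from Ighm at 11340 against 28208. Of the 5, however, 3 had a positive ratio and 2 a negative one, with a median log2 ratio of 0.54. Of 24 named proliferation genes, all measured, 23 had a negative ratio and 12 were at least 2-fold lower in the knockout, and their summed signal was 190133 against 378134. Of 14 named myeloid markers 5 were measured, the other 9 having means below 394. The summed signal over the 14 was 11457 in knockout cells against 4232 in wild-type cells. Of the 5, 3 had a positive ratio, all past 2-fold, and 2 a negative one. Lyz1 read 4549 against 555 and Lyz2 2646 against 736. For NK and innate markers the sums were 23061 against 24471.5, and for mature T markers 3954 against 5055. For thymic stroma they were 7767 against 5005. Of these 3 lists, 6 of 7, 4 of 8 and 4 of 9 named genes were measured. The part of cell division or of other cells in the ratios below was not tested, and fewer cells of a type cannot be told apart from less RNA per cell. Xist, which marks female cells, read 55300.0 in knockout cells against 423 in wild-type cells, so the sexes of the animals differed and sex cannot be told apart from genotype.

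Chromatin genes lay about as far from the equal-signal line as measured genes in general. By the brightest probe set none of the 48 measured members was at least 2-fold higher in the knockout, where 7.23% of all measured genes were, and 1, Gatad1, was at least 2-fold lower, where 5.65% of all measured genes were. Under median centring 5 were at least 2-fold lower, with Dnmt1, Pbrm1, Chd1 and Hdac5 beside Gatad1, where 8.60% of all measured genes were. The log2 ratios of the 48 as deposited ran from -2.39 to 0.88, with 27 below 0 and 21 above. Their median was -0.15, against 0.00 over all measured genes, and that of the 93 measured other genes of the same complexes was also -0.15. The median size of the log2 ratio, whatever its sign, was 0.42 for the members and 0.45 for all measured genes. Of the 48, 32 (66.7%) differed by less than 1.5-fold, against 62.9% of all measured genes. The members therefore spread about as widely as genes in general, with no more of them past 2-fold.

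**Figure D1:**
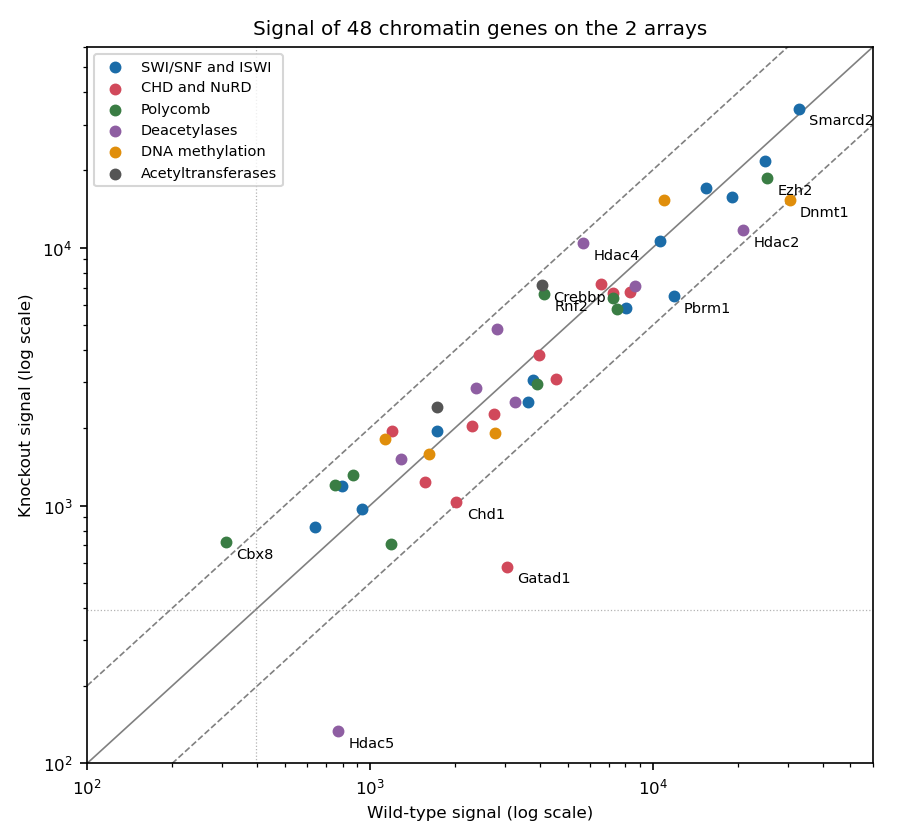
Signal in the knockout (vertical axis) against the wild type (horizontal axis), both in arbitrary intensity units on log scales, for the brightest probe set of the 48 measured members, coloured by group. The solid line is equal signal, dashed lines are 2-fold differences and dotted lines the floor of 394; Gatad1 lies below the lower dashed line at 579 against 3043, while Hdac5 and Cbx8 lie past a dashed line only through a value under the floor.

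Brightness was one property in which the members differed from the table as a whole. Of the 48, 25 fell among the brightest 25% of measured genes by mean signal, 13 in the next 25%, and 8 and 2 in the dimmer classes. Among the brightest 25% all genes together had a median log2 ratio of -0.18, and the 25 members there had one of -0.19. In the next class the 13 members had a median of -0.18 where all genes had 0.02, and in the one after it the 8 members had 0.30 against 0.09. The median of the 48 members was -0.01 after quantile normalization relative to all genes and 0.02 after loess normalization, which remove such a trend.

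Within the SWI/SNF and ISWI group all 13 genes were measured and none reached 2-fold. Their median log2 ratio was 0.01, with 6 below 0 and 7 above, and 12 of the 13 differed by less than 1.5-fold. Smarca4 (BRG1), the main ATPase of SWI/SNF in lymphocytes, read 21762 in knockout cells against 24847 in wild-type cells, a log2 ratio of -0.19. Its second probe set, at 9165 against 8249.7, gave 0.15. Both differences are smaller than the spread between probe sets of a gene. Smarca2 (BRM), the alternative ATPase, read 825 and 641, a log2 ratio of 0.36. Smarca5 (SNF2H), the ATPase of ISWI complexes, read 10627 and 10571 by its brightest probe set, a ratio of 0.01. Its 4 measured probe sets ran from -0.46 to 0.72, so no direction can be read for Smarca5.

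The core and accessory subunits of SWI/SNF showed the same picture with a few exceptions. Smarcb1 (SNF5), a core subunit and tumour suppressor, read 2529 against 3611, a log2 ratio of -0.51. Smarcc1 (BAF155), a scaffold subunit, read 5856 against 8069.7, with log2 ratios of -0.46, -0.63 and -1.59 over its 3 measured probe sets. The last of these probe sets was dim, at 394 against 1184, and its knockout value lay at the floor. Its paralog Smarcc2 (BAF170) read 1943 against 1732, a ratio of 0.17. Smarcc1 was therefore on the low side by every measured probe set, whereas the single probe set of its paralog was not.

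Smarcd2, a BAF60 subunit gene of strong signal here, read 34589.9 and 32898, a log2 ratio of 0.07, but its other probe sets gave -0.15 and -0.25. Smarcd1, another BAF60 gene, read 1191 and 798, a ratio of 0.58. Smarce1 (BAF57), which binds DNA through an HMG domain, read 3062 and 3761 and gave -0.30, but its second measured probe set gave 0.26. Of these 3 genes only Smarcd1 reached the spread between probe sets, and by a narrow margin.

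The targeting subunits divide SWI/SNF into BAF and PBAF forms. Arid1a, the large BAF subunit, read 17050.1 and 15404, a log2 ratio of 0.15, with -0.46 by its second probe set. Its paralog Arid1b read 969 and 935, a ratio of 0.05. Arid2 of the PBAF form read 15781 and 19039, a ratio of -0.27, but its 3 measured probe sets ran from -0.73 to 0.66. Pbrm1 (polybromo), the bromodomain subunit that defines PBAF, had the lowest ratio of the 13 by the brightest probe set. It read 6476 in knockout cells against 11847 in wild-type cells, a log2 ratio of -0.87 or 1.83-fold. The other 2 Pbrm1 probe sets were less far apart, at 4494 against 6343 (-0.50) and 3659.8 against 3706 (-0.02).

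By the deposited values and the brightest probe set, the CHD and NuRD group had the lowest median of the groups. Of its 12 genes 11 were measured, and their median log2 ratio was -0.28, with 9 below 0 and 2 above. Gatad1 was the only member past 2-fold by its brightest probe set. It encodes a GATA-type zinc finger protein known from a histone demethylase complex, related to the NuRD subunits Gatad2a and Gatad2b by its zinc finger rather than by membership of NuRD. It read 579 in knockout cells against 3043 in wild-type cells, 5.25-fold lower, and 6 of the 10770 measured genes had a lower ratio. Its second probe set read 1513 on each array, so the call rests on 1 of its 2 probe sets. The first of them, of the shared-sequence class (suffix _a_at), can read several transcripts of the gene, and without such probe sets Gatad1 was no longer past 2-fold.

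The ATPases of this group gave no common direction. Chd4 (Mi-2 beta), the ATPase of NuRD in thymocytes, read 6742 and 8323 by the brightest probe set, with a log2 ratio of -0.30. Its other 2 measured probe sets gave 0.31 and 0.44, so the sign depends on the probe set. Chd3 (Mi-2 alpha) read 2029 and 2297, a ratio of -0.18. Chd8, a remodeller that also restrains Wnt and p53 target genes, read 7205 and 6579, a ratio of 0.13. Chd7 was read below the floor by both of its probe sets on both arrays, at most 57.9.

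Chd1, a remodeller of actively transcribed genes, had measured probe sets on both sides of 0 that lay far apart. Its brightest probe set read 1028 against 2023, a log2 ratio of -0.98. Another read 1237 against 379, a ratio of at least 1.65 the other way. The remaining 2 read 918 against 1024 (-0.16) and 596 against 628 (-0.08). With the mean of its measured probe sets Chd1 stood at 0.11, so these arrays give no direction for it.

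The other NuRD subunits lay mostly a little below 0 by the brightest probe set. Mta1, a scaffold that recruits the deacetylases, read 3097 and 4553, a log2 ratio of -0.56. Its paralog Mta2 read 1229 and 1571, a ratio of -0.35. Mbd3, the methyl-CpG-binding domain subunit of NuRD, read 2263 and 2749, a ratio of -0.28. Those 3 genes have 1 measured probe set each and all lie within the spread between probe sets. Mbd2, which can take the place of Mbd3 and binds methylated DNA, read 6668 and 7222, a ratio of -0.12. Gatad2a, which links the remodeller to the deacetylase part of the complex, read 3843 and 3971, a ratio of -0.05. The 5 measured Gatad2a probe sets ran from -0.14 to 0.64. The related Gatad2b read 1947 and 1200.0, a ratio of 0.70, but 2 of its 4 measured probe sets gave -0.26 and -0.35. Over the 8 measured NuRD subunits, Gatad1 not counted, 7 had a negative ratio by the brightest probe set and the median was -0.23. With the mean of measured probe sets Chd4, Gatad2a and Gatad2b stood above 0, at 0.15, 0.14 and 0.10.

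**Figure D2:**
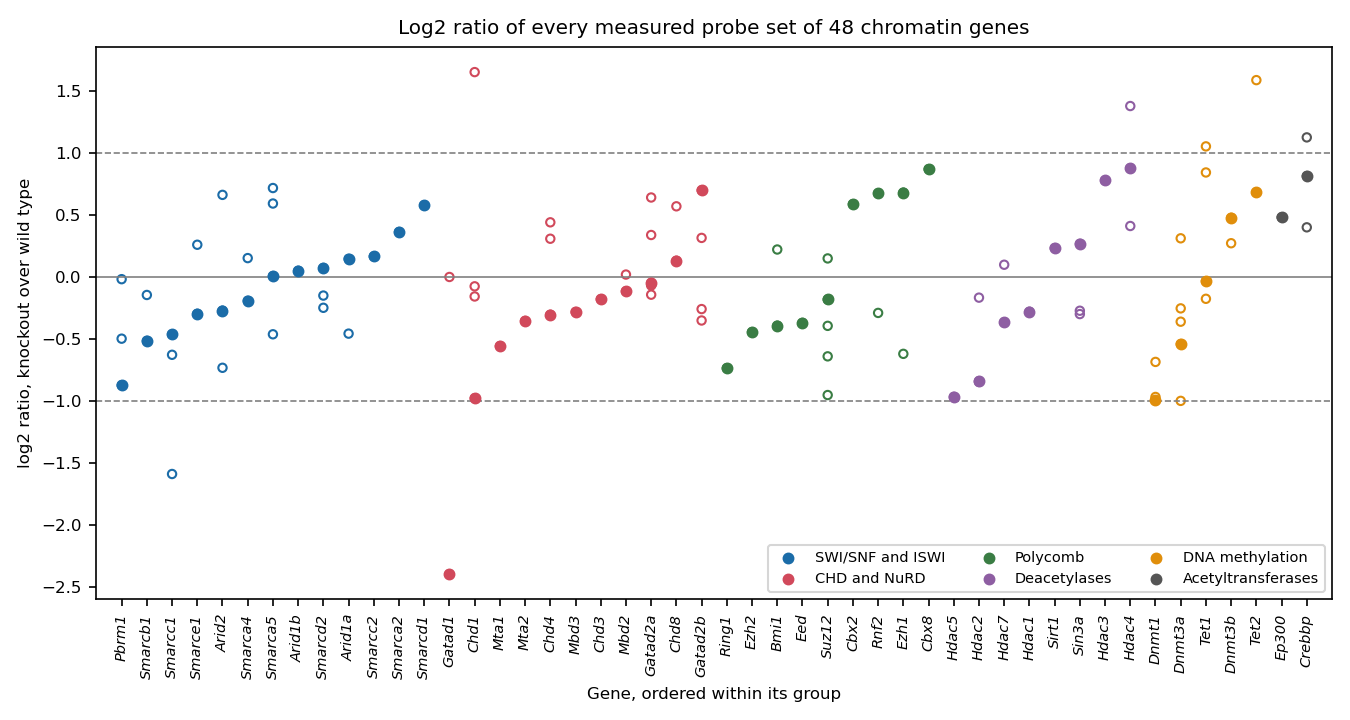
Log2 ratio of knockout over wild type (vertical axis) for every measured probe set of the 48 measured members, which are ordered within their group along the horizontal axis. Filled points are the brightest probe set of a gene and open points its other measured probe sets; dashed lines mark 2-fold. Of the 105 probe sets, 5 lie above the upper line and 2 below the lower one.

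Polycomb genes fell into members with ratios below and above 0. Of 10 genes 9 were measured, with a median log2 ratio of -0.18, 5 below 0 and 4 above, and none reached 2-fold. Polycomb repressive complex 2 methylates histone H3. Its catalytic subunit in dividing cells, Ezh2, read 18617 in knockout cells against 25328 in wild-type cells, a log2 ratio of -0.44. The alternative subunit Ezh1, typical of resting cells, read 1203 and 751, a ratio of 0.68. The second measured Ezh1 probe set read 394 and 606, a ratio of -0.62, so Ezh1 has no settled direction and an exchange of the subunits cannot be read from these arrays.

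Eed, the subunit that reads the methyl mark, read 5767 and 7454, a log2 ratio of -0.37. Suz12, the scaffold of complex 2, read 6398 and 7255, a ratio of -0.18. Over its 5 measured probe sets Suz12 ran from -0.95 to 0.15, with 4 of them below 0. Ezh2, Eed and Suz12 were thus each somewhat lower by the brightest probe set, all by less than the spread of 0.57.

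Polycomb repressive complex 1 ubiquitinates histone H2A. Of its catalytic subunits, Rnf2 (RING1B) read 6598 and 4138, a log2 ratio of 0.67, with -0.29 by its second measured probe set. Ring1 (RING1A) read 712 and 1185, a ratio of -0.73, by its only probe set. Bmi1, which activates them and is known for restraining the Cdkn2a locus in progenitors, read 2966 and 3893, a ratio of -0.39, with 0.22 by the other probe set. The catalytic paralogs thus differed in sign, and both Rnf2 and Bmi1 changed sign between their own probe sets.

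The CBX subunits bind the methyl mark. Cbx8 read 719.7 in knockout cells against 309 in wild-type cells, the latter under the floor, so that it was at least 1.83-fold higher. Cbx2 read 1312 and 874, a log2 ratio of 0.59, by its measured probe set. Cbx7 was not measured, its best probe set reading 395 and 293. The median of the 5 measured complex 1 genes was 0.59 and that of the 4 complex 2 genes -0.28, with members of both signs in each.

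The deacetylases and their corepressors were evenly divided. Of 9 genes 8 were measured, with a median log2 ratio of -0.02, 4 below 0 and 4 above. Hdac1 and Hdac2 are the paired class I enzymes of NuRD, Sin3 and CoREST complexes. Hdac1 read 7108 and 8628, a log2 ratio of -0.28. Hdac2 read 11666 in knockout cells against 20864 in wild-type cells, a ratio of -0.84 or 1.79-fold lower. A second Hdac2 probe set, at 3613 against 6492, gave nearly the same ratio of -0.85, and the dim remaining one, at 483 against 543, gave -0.17. Hdac2 was therefore lower by all 3 of its probe sets, though by less than 2-fold. After quantile and loess normalization its log2 ratio was smaller, at -0.58 and -0.54. Hdac3, the enzyme of the NCoR complex, read 4822 and 2814, a ratio of 0.78, by its only probe set.

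Class IIa deacetylases shuttle between nucleus and cytoplasm and repress MEF2 target genes. Hdac4 was on the high side, reading 10386 in knockout cells against 5659.6 in wild-type cells, a log2 ratio of 0.88 or 1.84-fold. Its other probe sets read 6864 against 2644, which is past 2-fold at 1.38, and 4136 against 3112 (0.41). All 3 Hdac4 probe sets were thus higher in the knockout. Hdac5 went the other way, at 133 against 769, at least 1.95-fold lower with the knockout under the floor. Hdac7, known in thymocytes for repressing Nr4a1, read 2519 and 3246, a log2 ratio of -0.37, with 0.10 by its second probe set. Hdac4 and Hdac5 lay on opposite sides, so the class had no common direction.

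Sirt1, an NAD-dependent deacetylase of histones and p53, read 1520.3 and 1293, a log2 ratio of 0.23. Sin3a, the scaffold that recruits Hdac1 and Hdac2, read 2851 and 2368, a ratio of 0.27, whereas its other 2 probe sets gave -0.27 and -0.30. Neither gene was set apart from the spread between probe sets.

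Among DNA methylation genes the maintenance enzyme was the lowest. Dnmt1 copies methylation onto the new strand behind the replication fork. It read 15282 in knockout cells against 30455 in wild-type cells by the brightest probe set, with a log2 ratio of -0.99 or 1.99-fold, just short of 2-fold. The other 2 probe sets read 6772 against 13233 (-0.97) and 13140.4 against 21117 (-0.68). After quantile and after loess normalization the log2 ratio of Dnmt1 was smaller, at -0.65 in both. All 3 Dnmt1 probe sets were lower in the knockout and all are of the shared-sequence classes (suffix _a_at or _x_at), of which _x_at can also bind other transcripts. Uhrf1, which brings Dnmt1 to newly replicated DNA, read 12130 against 25240.4, 2.08-fold lower, with -0.24 by its second probe set. These values stand beside the proliferation list, whose median log2 ratio was -0.9996, and the share of cell division in them was not tested.

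The de novo methyltransferases differed from Dnmt1. Dnmt3a read 1907 and 2772, a log2 ratio of -0.54, with its 5 probe sets between -0.998 and 0.31. Dnmt3b read 15258 in knockout cells against 10964 in wild-type cells, a ratio of 0.48, and 0.27 by its second probe set. Dnmt3b was thus on the high side by both probe sets, within the spread between probe sets, while 4 of 5 Dnmt3a probe sets were on the low side.

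TET enzymes start the removal of DNA methylation. Tet2, often mutated in blood cancers, read 1812 and 1129, a log2 ratio of 0.68. Its second probe set read 1585 and 528, a ratio of 1.59 and so past 2-fold, and with the mean of both Tet2 was at least 2-fold higher. Tet1 read 1579.8 and 1617 by its brightest probe set, a ratio of -0.03, while its others gave 0.84 (993 against 554), at least 1.05 (817 against 299) and -0.18 (517 against 585). Tet3 was not measured, at 151 and 397. Both Tet2 probe sets were higher in the knockout, and those of Tet1 split.

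The acetyltransferase genes are coactivators with broad roles in haematopoiesis, and both were on the high side. Crebbp (CBP) read 7155 in knockout cells against 4072 in wild-type cells, a log2 ratio of 0.81. Its other 2 measured probe sets gave 1.12 (2357 against 1082) and 0.40 (1960.4 against 1486). Ep300 (p300) read 2402 and 1722, a ratio of 0.48, by its only probe set and within the spread between probe sets. All 4 measured probe sets of the pair were above 0, and 1 of them passed 2-fold. Of 8 other measured acetyltransferase genes, 5 had a negative ratio and 3 a positive one, with a median log2 ratio of -0.18.

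Read over all probe sets, the members gave few differences that the probe sets share. Of the 105 measured probe sets 5 were at least 2-fold higher, against 7.76% of all measured named probe sets, and 2 were at least 2-fold lower, against 5.68%. These 7 belong to 7 different genes: Chd1, Hdac4, Tet1, Tet2 and Crebbp on the high side, Gatad1 and Smarcc1 on the low side. Of the 30 members with several measured probe sets 11 had all of them on the same side of 0, or 36.7%, and 47.9% of all 4514 such genes did. Of the 17 with at least 3, 6 did: Smarcc1, Pbrm1, Hdac2 and Dnmt1 below 0, Hdac4 and Crebbp above 0. That is 35.3%, against 32.6% of all genes with at least 3, so it is near the background.

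**Figure D3:**
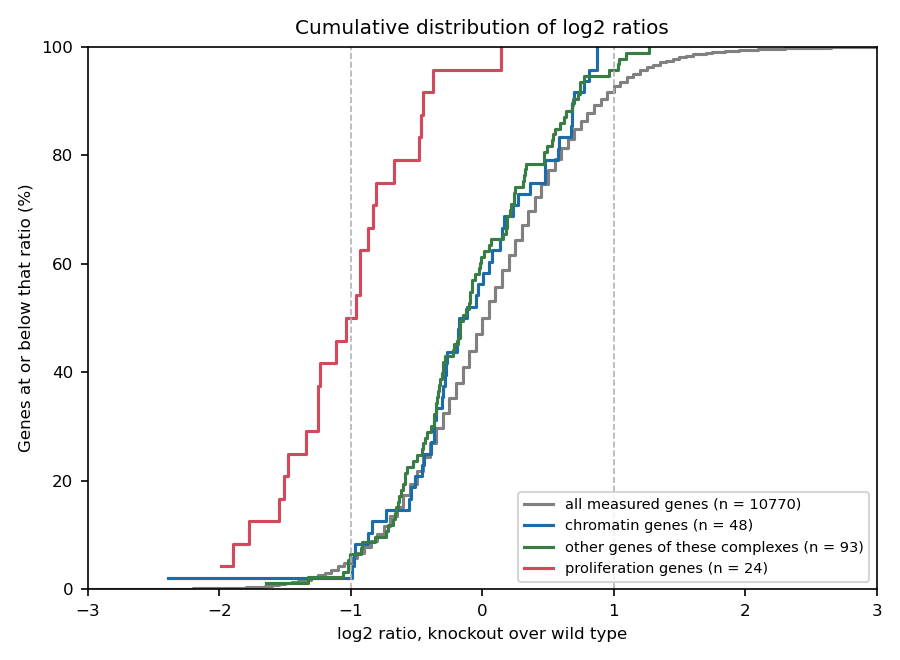
Cumulative share of genes (vertical axis, percent) at or below each log2 ratio of knockout over wild type (horizontal axis), for all 10770 measured genes in steps of 0.05, the 48 measured members, the 93 other measured genes of these complexes and the 24 proliferation genes. The curves of both chromatin sets run close to that of all genes, with medians of -0.15 and -0.15 against 0.00, while the proliferation genes lie to the left with a median of -0.9996.

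The wider complexes were read in the same way. A further list of 106 genes of these complexes had 93 measured members, of which 4 were higher and 6 lower by at least 2-fold, beside the 7.23% and 5.65% of all measured genes, so both counts are near the background. Bicral, a subunit of a SWI/SNF form, read 949 against 358 and was at least 2.41-fold higher. Hdac8, an X-linked class I deacetylase, read 1447 against 679, 2.13-fold higher. The polycomb complex 1 genes Pcgf3 and Phc3, the latter named after its value was seen, were 2.06-fold and 2.04-fold higher. On the low side, L3mbtl2, of a variant polycomb complex 1, read 559.5 against 1751 and was 3.13-fold lower. Cdk2ap1, a NuRD-associated gene, read 33865 against 85078, a log2 ratio of -1.33, and its other 2 probe sets gave -1.62 and -1.64. Cdk2ap1 was thus past 2-fold by each of its 3 probe sets, all of which are of the shared-sequence classes (suffix _a_at or _x_at). Beside Uhrf1, given above, the other lower genes were Dpf1 (at least 2.03-fold), Sap30 (2.03-fold) and Sirt4 (2.01-fold). Like Phc3, these last were named after their values were seen.

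The order of the groups turned on how the arrays were scaled and read. By the deposited values the medians ran from -0.28 (CHD and NuRD) over -0.18 (polycomb), -0.03 (DNA methylation) and -0.02 (deacetylases) to 0.01 (SWI/SNF and ISWI). Single genes within a group had an SD that ran from 0.39 in SWI/SNF and ISWI to 0.78 in CHD and NuRD, and the gaps between groups were not tested. With the mean of probe sets the CHD and NuRD median was -0.05 and that of DNA methylation 0.37. Under loess normalization SWI/SNF and ISWI stood at 0.11 and under median centring at -0.15, where all genes together stood at -0.16. Polycomb turned to 0.12 with a floor at the lower quartile. Across the deposited values and the 7 alternatives only CHD and NuRD had a negative median every time, and it lay below that of all genes every time as well. It was not the lowest of the groups every time, however. With a floor at the lower quartile it was -0.281, where that of DNA methylation was -0.287. With the mean of probe sets it was -0.05, where that of deacetylases was -0.12. Without probe sets of shared sequence it was -0.08, where that of deacetylases was -0.28.

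**Figure D4:**
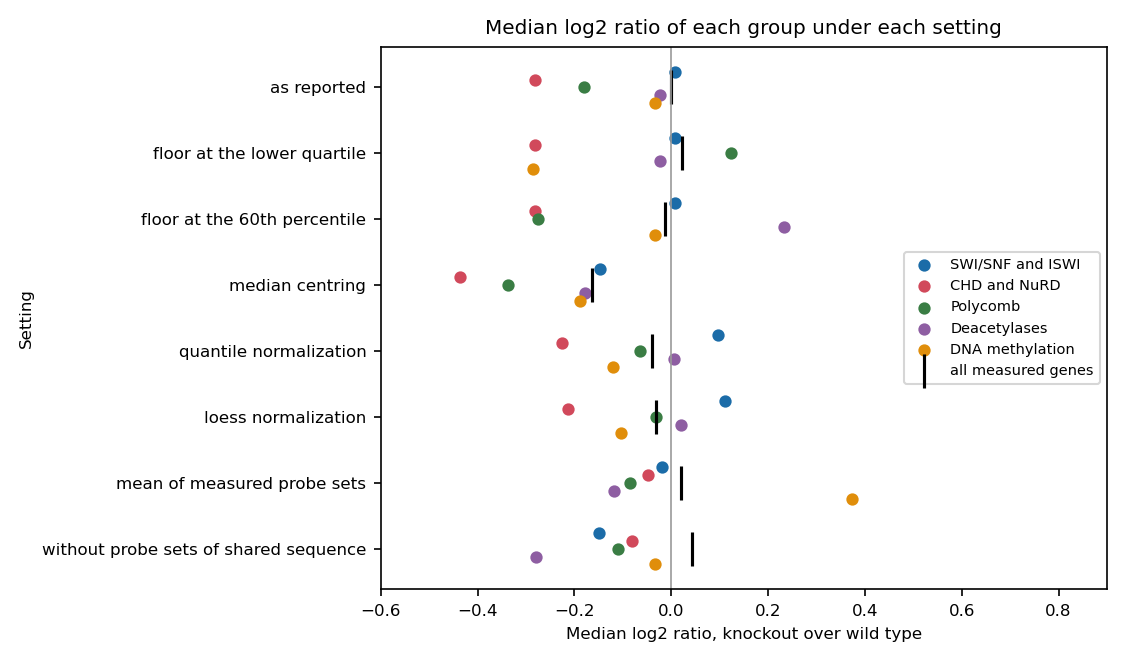
Median log2 ratio of knockout over wild type (horizontal axis) of each of the 5 groups of members under the reported setting and 7 alternatives (vertical axis), with black bars for the median of all measured genes. The CHD and NuRD points are below 0 in every row, from -0.44 to -0.05, and the order of the groups changes from row to row.

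Promoter sequences were searched for letters of the kind bound by E2F factors, which drive S phase genes. The promoter windows of RefSeq (GRCm38.p6, 250 bases before to 50 after a gene's start) were read on both strands for TTTCCCGC, TTTGGCGC, TTTCGCGC and TTTGCCGC; no other motif was searched. Windows were held for 42 of the 52 members, matched by symbol. The letters were found in 5 of these 42 genes (11.9%), against 4.86% of 8739 measured genes with a window. Among all 27025 genes with a window the share was 2.6%, and 6 of 22 proliferation genes (27.3%) had them. Counted by windows, the share was 9.09% of 55 for the members and 4.04% of 11151 for measured genes. Of all 32851 windows it was 2.26%. The matches are shown since they fall in genes of different direction; capitals mark the matching letters, each stretch reads 5′ to 3′ on the gene's strand, and the Dnmt1 match in its upstream stretch is the reverse complement of TTTCGCGC.
Dnmt1, chr9:20952824-20952853, minus strand, 219 bases before the start: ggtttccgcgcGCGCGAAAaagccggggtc
Ezh2, chr6:47595009-47595038, minus strand, from base 4 after the start: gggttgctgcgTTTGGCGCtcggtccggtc
Suz12, chr11:79992876-79992905, plus strand, 219 bases before the start: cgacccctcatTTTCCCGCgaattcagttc
Arid1a, chr4:133754022-133754051, minus strand, 55 bases before the start: tccctccctccTTTCCCGCcccctccccct
Smarcd1, chr15:99702145-99702174, plus strand, 131 bases before the start: gtcagcacgccTTTCCCGCtagtcgccccc

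Of these 5 genes, Dnmt1, Ezh2 and Suz12 had log2 ratios of -0.99, -0.44 and -0.18 by the brightest probe set. By the same reading Arid1a and Smarcd1 had ratios of 0.15 and 0.58. The second Arid1a probe set gave -0.46, those of Suz12 ran from -0.95 to 0.15, and Smarcd1 has 1 measured probe set. A second Dnmt1 match, TTTGGCGC, began 34 bases after the same start. Hdac2 and Pbrm1, at -0.84 and -0.87 by the brightest probe set, are not among the 5. The other Pbrm1 probe sets gave -0.50 and -0.02. Windows were held for only 42 of the 52 members, so a gene outside the 5 may lack a window rather than the letters. The letters occurred in members on both sides of 0 by the brightest probe set, and a match describes the sequence only.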

How the data were processed

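Total RNA of sorted thymocytes was amplified and biotin-labelled by in vitro transcription, per the labels' protocols. The deposited table gives each probe set an intensity on a linear scale. GCOS 1.4 is named in the submitters' processing notes, without its settings. With 2% trimmed from each end, both arrays average 1000, which shows a common scaling by the authors. Of 45101 probe sets, 64 controls were left out. Names came from the platform annotation, with symbols updated by gene identifier from RefSeq (GRCm38.p6): 34945 have 1 symbol, 932 several and 9160 none. Since that annotation gives no build, probe sets carry no coordinates here; those of promoter stretches are RefSeq's on GRCm38.p6.

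Signals below 394 were raised to it before log2 ratios were taken, and the probe set of highest mean signal stood for its gene (Python 3.11.15, pandas 2.3.3). With 1 array per genotype no test was possible, and the number of arrays limits the precision. Members past 2-fold, and those whose probe sets disagreed with one past 2-fold, are given with every measured probe set. Of the other genes of these complexes, the 3 highest and 3 lowest past 2-fold are named. Phc3, Dpf1, Sap30 and Sirt4 were added after their values were seen. The calculation was checked on simulated arrays with known changes. Alternatives were 2 other floors (lower quartile, 119, and 60th percentile, 550.1), median centring, quantile and loess normalization, the mean of probe sets, and leaving out probe sets of shared sequence. The members, lists and motif letters were chosen with earlier results of these data known.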

Additional observations from a re-analysis of the deposited data

How the results depend on the processing

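No member was at least 2-fold higher in the deposited values. The count was 1 with a floor at the lower quartile (Cbx8), where 16.7% of all measured genes were. It was 1 after quantile and after loess normalization (Hdac4 in both), where 6.22% and 6.32% of all measured genes were. With the mean of measured probe sets it was 1 (Tet2), beside 5.89% of all measured genes. Without probe sets of shared sequence it was 1 (Cbx8), beside 8.21%. The count of members at least 2-fold lower was 1 as reported, 3 with a floor at the lower quartile (Gatad1, Hdac5 and Tet3), 5 under median centring (Pbrm1, Chd1, Gatad1, Hdac5 and Dnmt1) and 3 under quantile and under loess normalization (Chd1, Gatad1 and Hdac5 in both). Median centring moved the median of all genes to -0.16, and 8.60% of all measured genes were then 2-fold lower. Of 327 values of single members under the alternatives, 320 lay within 0.57, the SD between probe sets of a gene, of the value reported. That count does not measure stability. Changing the floor leaves ratios of signals above it as they were, and median centring shifts them by 1 common amount. The share of values within 0.57 over all genes was not computed. Gatad1, the gene called as reported, did not turn its sign but stood at -0.0002 without probe sets of shared sequence. Chd1 stood at 0.11 with the mean of probe sets. Of the 48 members 34 kept their sign in every setting that measured them, 19 below 0, with Gatad1 among them, and 15 above. How many of all measured genes did so was not computed, and every setting reads the same 2 arrays. No array could be left out, and members near the floor (Cbx8, Hdac5) have only a bound.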

Other observations

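Of 4 histone demethylase genes on the sex chromosomes, 3 passed 2-fold. Kdm6a (UTX), an X-linked demethylase of the polycomb mark that is known to escape X inactivation, read 2197 in knockout cells against 603 in wild-type cells, 3.64-fold higher, with a log2 ratio of 0.75 by its second measured probe set. Its Y-linked relative Uty read 104 and 1250.3, at least 3.17-fold lower. Kdm5d, a Y-linked demethylase of active promoters, read 36.7 and 1782, at least 4.52-fold lower, while its X-linked relative Kdm5c read 1792 and 1251, a log2 ratio of 0.52. These genes were picked as sex-linked, and with a knockout and a wild type of different sex their values cannot be assigned to the genotype.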
